A study of Mus musculus with 2 samples.

Results

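The Hox genes are the 39 mouse homeobox genes of the HoxA, HoxB, HoxC and HoxD clusters, and their RNA was measured in the gastrocnemius, the large calf muscle of the hindlimb. They were chosen by symbol, as every gene named Hox followed by a cluster letter and a paralogue number, out of 55536 annotated mouse genes, of which 22028 are protein-coding. All 39 were present in the tables of both libraries. The study holds 1 group of 2 total RNA libraries, each from 300 ng of RNA of a 10-day-old male mouse of the B6CASTF1/J hybrid strain, with added ERCC spike-in RNAs. The labels name no gene deletion, transgene or treatment. They give the libraries different animal numbers and the same donor code. Hence no condition was compared, no test was made, and each level is given for replicate 1 and replicate 2 with the mean and SD of the 2 libraries.

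Hox genes encode transcription factors that bind DNA through the homeodomain, a fold encoded by the homeobox. In each cluster the genes lie in the order in which they act along the body, from head-side genes with low paralogue numbers to tail-side genes with high numbers, and genes with the same number in different clusters are paralogues. In limb development, groups 9 and 10 are known for patterning the thigh or upper arm, group 11 the shank or forearm, and group 13 the foot or hand. Connective tissue cells of a limb are known to keep part of this positional pattern after birth.

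Group 10 held the largest summed level of the 13 paralogue groups, so its homeoboxes are shown first. Each is 180 bases (60 codons), lies whole in exon 2 of its gene, and is given 5′ to 3′ on the coding strand from the mm10 transcripts of GENCODE M21. Capitals mark the 50 positions at which the 3 genes do not all carry the same base.
Hoxa10 (chr6:52232554-52232733, minus strand): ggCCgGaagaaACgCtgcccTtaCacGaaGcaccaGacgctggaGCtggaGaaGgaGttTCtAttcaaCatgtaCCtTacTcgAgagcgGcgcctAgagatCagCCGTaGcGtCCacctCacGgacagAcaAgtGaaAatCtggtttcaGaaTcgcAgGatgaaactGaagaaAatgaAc
Hoxc10 (chr15:102970848-102971027, plus strand): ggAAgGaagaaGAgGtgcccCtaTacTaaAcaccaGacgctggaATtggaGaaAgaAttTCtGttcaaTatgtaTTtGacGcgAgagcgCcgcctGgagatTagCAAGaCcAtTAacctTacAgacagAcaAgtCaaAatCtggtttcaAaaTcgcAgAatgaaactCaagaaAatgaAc
Hoxd10 (chr2:74694141-74694320, plus strand): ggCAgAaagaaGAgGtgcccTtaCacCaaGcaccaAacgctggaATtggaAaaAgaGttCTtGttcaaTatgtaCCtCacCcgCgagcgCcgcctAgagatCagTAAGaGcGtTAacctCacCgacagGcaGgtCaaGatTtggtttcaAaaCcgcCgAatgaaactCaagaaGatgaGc
Hoxc10 and Hoxd10 were identical at 82.8% of positions, Hoxa10 and Hoxc10 at 80.6%, and Hoxa10 and Hoxd10 at 78.9%. The longest identical run in any of these pairs was 16 bases. Over all 39 homeoboxes, the 42 pairs with the same paralogue number had a median identity of 80.6% (range 67.2% to 93.9%), and the 699 pairs with different numbers had a median of 60.6% (range 46.1% to 88.9%).

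The deposited levels are in TPM, the usual length-scaled unit, in which a library's features sum to the same total. The libraries held 38874862 and 38160786 expected counts (estimated reads per gene, which need not be whole) in replicates 1 and 2. Skeletal muscle markers were high in both libraries: Acta1, skeletal actin, was at 22684 and 24109 TPM, and the 5 muscle markers summed to 72711 and 74139 TPM. Against this, the 39 Hox genes summed to 95.4 and 85.7 TPM (mean 90.6 ± 6.87, SD, n = 2), or 0.00954% and 0.00857% of all TPM. In these bulk samples, fewer cells of a type and less RNA per cell cannot be told apart.

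A level of 1 TPM or more in both libraries was reached by 14 of the 39 Hox genes (35.9%), against 51.4% of the protein-coding genes. Another 18 members were above 0 but below 1 TPM in at least 1 library. The remaining 7 had no expected count in either library. The median Hox gene was at 0.670 TPM in replicate 1 and 0.480 TPM in replicate 2, against 1.39 and 1.29 TPM for the median protein-coding gene. By counts, 29 members had an expected count of 10 or more in both libraries.

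Posterior and central genes of the HoxA, HoxC and HoxD clusters made up most of the Hox RNA. Hoxc10, a gene known for its hindlimb expression and its role at lumbar levels (ENSMUSG00000022484.7, chr15:102966796-102971893, plus strand), was at 21.58 and 20.35 TPM, from 1266.89 and 1196 expected counts. It was the highest member in both libraries (SD 0.870 TPM, n = 2), and its mean exceeded that of 88.1% of protein-coding genes. Hoxd8, a central gene of HoxD (ENSMUSG00000027102.4, chr2:74704615-74707933, plus strand), followed at 19.60 and 17.68 TPM (mean 18.6 ± 1.36), from 1532 and 1346 counts. The ranges of Hoxc10 and Hoxd8 did not overlap in this table.

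Hoxa10, a paralogue of Hoxc10 needed for the proximal limb skeleton and the uterus (ENSMUSG00000000938.11, chr6:52231197-52240854, minus strand), was at 12.85 and 10.11 TPM (mean 11.5 ± 1.94). Hoxd9, a posterior HoxD gene that acts with its neighbours in the proximal limb (ENSMUSG00000043342.9, chr2:74697727-74700208, plus strand), was at 6.86 and 6.64 TPM (mean 6.75 ± 0.156). Hoxc10, Hoxd8 and Hoxa10 together held 56.6% and 56.2% of the summed Hox TPM. Each of these 4 genes was apart from the next in the order of levels.

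**Figure D1:**
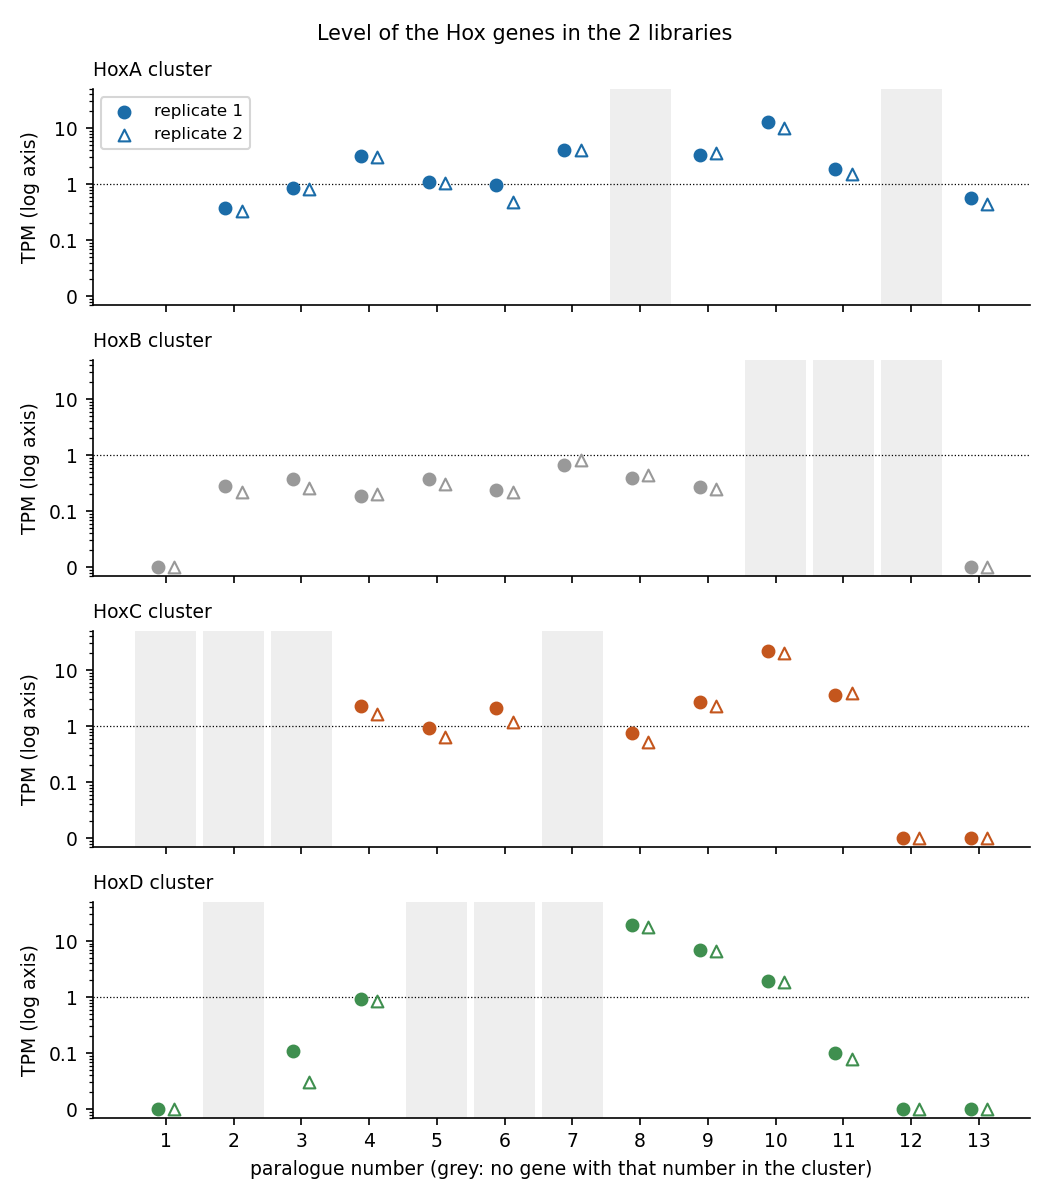
Level of 38 Hox genes in TPM on a log axis, by cluster (panels) and paralogue number, with replicate 1 as filled circles and replicate 2 as open triangles; values of 0 are drawn at the tick labelled 0, at the foot of the log axis, and the dotted line is 1 TPM. HoxA, HoxC and HoxD peak at Hoxa10, Hoxc10 and Hoxd8, and every HoxB gene lies below 1 TPM in this table.

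Another 10 members averaged 1 TPM or more. Hoxa7, a central gene known at thoracic levels, was at 4.01 and 4.02 TPM. Hoxc11, of the group known for the shank, was at 3.56 and 3.86 TPM, and Hoxa9, a posterior gene also known in blood precursors, at 3.33 and 3.56 TPM. The ranges of Hoxc11 and Hoxa9 touched, so their order was not resolved.

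Hoxa4, a central gene known at neck levels, was at 3.20 and 3.01 TPM, apart from its neighbours. Hoxc9, known for thoracic motor neuron identity, was at 2.75 and 2.27 TPM. Hoxc4 was at 2.27 and 1.64 TPM, and Hoxd10, the remaining gene of group 10, was at 1.90 and 1.83 TPM. From Hoxc9 to Hoxc6 in the order of levels, each gene's range overlapped that of the next.

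Hoxa11, a patterning gene of the shank and forearm, was at 1.89 and 1.50 TPM. Hoxc6, known at thoracic and forelimb levels, was at 2.15 and 1.20 TPM (mean 1.67 ± 0.672), the widest SD relative to its mean among the 14. Hoxa5, known for the lung and the lower neck, was at 1.11 and 1.06 TPM. Of the 38 neighbouring pairs in the full order of levels, 13 had ranges that did not overlap and 25 had ranges that did. The 25 include the pairs among the 7 members without a count, which are ties at 0.

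The members below 1 TPM on average were HoxB genes, head-side genes and some central and posterior genes of the other clusters. Hoxd4, Hoxa3, Hoxc5, Hoxb7, Hoxa6, Hoxc8 and Hoxa13 had means from 0.50 to 0.875 TPM, and each overlapped the next in the order. Hoxb8, Hoxa2, Hoxb5, Hoxb3, Hoxb9, Hoxb2, Hoxb6 and Hoxb4 had means from 0.195 to 0.415 TPM. Hoxd11 and Hoxd3 had means of 0.0900 and 0.0700 TPM and at most 8 expected counts in a library.

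Hoxb1, Hoxb13, Hoxc12, Hoxc13, Hoxd1, Hoxd12 and Hoxd13 had an expected count of 0 in both libraries. Hoxb1 is known for the hindbrain, Hoxc13 for hair and nails, and Hoxd12 and Hoxd13 for the digits. A count of 0 allows up to 3 counts, which for these genes corresponds to between 0.0379 TPM (Hoxd12, replicate 2) and 0.0993 TPM (Hoxc12, replicate 1). These floors cover counting error only. Lower levels were not detectable at this depth.

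By cluster, HoxC held 35.6% ± 0.0262 of the summed Hox TPM, HoxD 31.3% ± 0.512, HoxA 30.1% ± 0.663 and HoxB 3.06% ± 0.177 (SD, n = 2). In TPM, HoxC summed to 34.0 and 30.5, HoxD to 29.5 and 27.1, HoxA to 29.2 and 25.4, and HoxB to 2.80 and 2.73. The ranges of HoxD and HoxA overlapped, that of HoxC lay above both, and that of HoxB lay below all of them. The number of members at 1 TPM or more was 6 of 11 in HoxA, 5 of 9 in HoxC, 3 of 9 in HoxD and 0 of 10 in HoxB. Within HoxC, Hoxc10 alone held 65.0% of the cluster's mean, and within HoxD, Hoxd8 alone held 65.9%. Without Hoxc10, the share of HoxC was 16.2%, that of HoxD 40.7% and that of HoxA 39.2%.

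The HoxB genes lay close together as well as low. The 8 HoxB genes with counts had means between 0.195 TPM (Hoxb4) and 0.750 TPM (Hoxb7, at 0.67 and 0.83 TPM). HoxB is carried on chr11:96194316-96368256, a span of 174 kb, against 96.8 kb for HoxD, 105 kb for HoxA and 116 kb for HoxC.

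By position class, the posterior genes (groups 9 to 13) held 58.9% ± 0.746 of the summed Hox TPM, the central genes (groups 4 to 8) 39.1% ± 0.659 and the anterior genes (groups 1 to 3) 2.06% ± 0.0862. In both libraries, 8 of the 16 posterior and 6 of the 15 central genes reached 1 TPM, and 0 of the 8 anterior genes did. In the second transcript table, summed per gene, 1 anterior gene reached it, Hoxa3 at 1.34 and 1.13 TPM, and so did 1 HoxB gene, Hoxb7 at 1.06 and 1.05 TPM. The posterior class was at 46.4% and the central class at 50.9% when Hoxc10 alone was left out, so the order of these 2 classes turned. The anterior class was at 2.68% without Hoxc10. Hoxc10 held 39.4% of the mean of the posterior class, and Hoxd8 held 52.6% of that of the central class. Shares without Hoxd8 were not computed.

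By paralogue group, group 10 summed to 36.3 and 32.3 TPM (37.9% ± 0.283 of the Hox total), and Hoxc10 held 61.1% of that sum. Group 8 summed to 20.8 and 18.6 TPM, of which Hoxd8 held 94.6%. Group 9 summed to 13.2 and 12.7 TPM, spread over Hoxd9, Hoxa9, Hoxc9 and, at a low level, Hoxb9. These 3 neighbouring groups lay above all others in both libraries.

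Groups 4, 11 and 7 followed at means of 6.13, 5.49 and 4.76 TPM. Group 6 summed to 3.34 and 1.90 TPM and group 5 to 2.40 and 2.01 TPM. Groups 2 and 3 summed to means of 0.600 and 1.22 TPM. Group 13 rested on Hoxa13 alone, at 0.56 and 0.44 TPM, and no count was assigned to either gene of group 12.

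**Figure D2:**
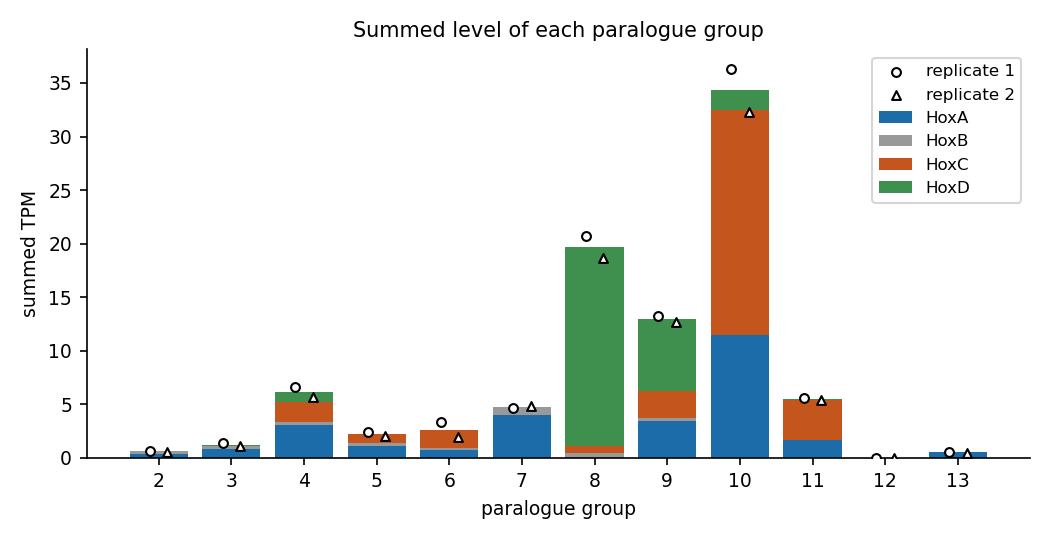
Summed TPM of paralogue groups 2 to 13: bars are the mean of the 2 libraries, stacked by cluster, and the open marks are the sums in each library. Group 10 is led by Hoxc10 and Hoxa10, group 8 by Hoxd8, and group 12 is at 0.

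Along HoxD, on chr2:74668310-74765142, the levels formed a step. From the 5′ end of the cluster, Hoxd13 and Hoxd12 had no count, Hoxd11 was at 0.10 and 0.08 TPM, Hoxd10 at 1.90 and 1.83, Hoxd9 at 6.86 and 6.64, and Hoxd8 at 19.60 and 17.68 TPM. Beyond Hoxd8, Hoxd4 was at 0.91 and 0.84 TPM, Hoxd3 at 0.11 and 0.03, and Hoxd1 at 0. In HoxC, on chr15:102921103-103036852, Hoxc13 and Hoxc12 had no count beside Hoxc11 at 3.56 and 3.86 TPM and Hoxc10 at 21.58 and 20.35 TPM. In HoxA, on chr6:52155590-52260880, Hoxa13 was above 0, at 0.56 and 0.44 TPM from 40 and 30 counts, next to Hoxa11.

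The promoters of 4 HoxD genes on either side of that step are shown, from RefSeq on GRCm38.p6 (the build named mm10), each from 250 bases before to 50 bases after an annotated start, 5′ to 3′ on the plus strand. Capitals mark CG dinucleotides, the sites at which vertebrate DNA is methylated.
Hoxd13 (chr2:74667975-74668274): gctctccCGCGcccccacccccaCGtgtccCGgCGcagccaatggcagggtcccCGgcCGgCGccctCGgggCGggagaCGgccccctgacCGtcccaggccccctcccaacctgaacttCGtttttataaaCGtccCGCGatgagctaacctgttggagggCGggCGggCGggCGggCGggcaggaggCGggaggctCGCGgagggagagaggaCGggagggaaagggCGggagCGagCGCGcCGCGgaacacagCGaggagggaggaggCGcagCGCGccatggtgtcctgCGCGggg
Hoxd12 (chr2:74674763-74675062): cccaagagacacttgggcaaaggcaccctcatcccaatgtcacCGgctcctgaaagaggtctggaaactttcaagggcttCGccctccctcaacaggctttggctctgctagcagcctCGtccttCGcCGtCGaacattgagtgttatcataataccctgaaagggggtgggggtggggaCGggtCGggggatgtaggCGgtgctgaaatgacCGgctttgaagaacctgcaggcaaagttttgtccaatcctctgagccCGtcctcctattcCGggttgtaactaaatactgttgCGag
Hoxd9 (chr2:74697513-74697812): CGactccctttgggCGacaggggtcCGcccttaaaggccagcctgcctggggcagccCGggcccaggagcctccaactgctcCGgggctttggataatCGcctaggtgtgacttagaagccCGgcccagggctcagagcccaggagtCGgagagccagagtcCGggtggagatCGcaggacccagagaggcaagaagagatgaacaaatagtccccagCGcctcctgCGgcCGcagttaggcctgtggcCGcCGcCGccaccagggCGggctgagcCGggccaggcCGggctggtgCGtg
Hoxd8 (chr2:74704365-74704664): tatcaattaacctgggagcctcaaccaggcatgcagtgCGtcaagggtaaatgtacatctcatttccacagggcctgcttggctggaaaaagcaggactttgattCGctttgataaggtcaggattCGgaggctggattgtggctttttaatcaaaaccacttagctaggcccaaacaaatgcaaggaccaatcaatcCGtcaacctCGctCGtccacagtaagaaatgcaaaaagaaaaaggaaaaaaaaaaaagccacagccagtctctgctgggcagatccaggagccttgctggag
Hoxd13, without a count, held 37 CG dinucleotides, Hoxd12, also without a count, held 13, Hoxd9 held 20, and Hoxd8, the highest gene of the cluster, held 6. Whether the number of CG dinucleotides goes with the level was not tested. The Hoxd8 window belongs to the start of transcript Hoxd8-203, which held 1.35% and 0% of the gene's TPM in the first transcript table and 32.2% and 22.7% in the second. Hoxd8-201, which held most of the gene's TPM, starts at chr2:74704905, past the end of this window.

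RefSeq promoters matched 22 of the 39 members, with 24 windows. Their median number of CG dinucleotides was 14, against 7 over 32851 promoters of the same length, both rounded down to whole numbers. The CCAAT box, searched as CCAAT on both strands, was found in 62.5% of the Hox windows and 37.4% of all windows. The TATA motif, searched as TATAAA, was found in 16.7% against 13.6%, and TTTATG, a short core bound by posterior Hox and Cdx proteins, in 20.8% against 11.9%. These were also searched on both strands, so a TATAAA match may lie on the strand opposite to the gene. A match is a run of letters, not a bound site, and 1 window may hold more than 1 of these motifs.

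Several members share sequence or position with other annotated genes, which limits how reads were divided. Hoxd3 and Hoxd4 shared 61.1% and 49.1% of their 31-base words, on the same strand, with other annotated genes, among them the gene model Gm28230. With other Hox genes they shared 9.26% and 12.1%. Gm28230 was assigned 10.34 and 12.72 counts, so the split of reads among Hoxd3, Hoxd4 and Gm28230 is uncertain. Hoxc10 shared 7.34% of its words with Hoxc5, with which it overlaps over 8.70% of its exon bases. For Hoxd8 the share was 0.0730%, and for Hoxa10 it was 0. Antisense gene models overlapped exons of 10 members, including 52.9% of Hoxb3 (Hoxb3os) and 35.0% of Hoxa11 (Hoxa11os). The sources used here do not say whether counting used strand, so for these pairs the strands cannot be told apart.

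Most members had 1 leading transcript. Of the 14 members at a mean of 1 TPM or more, 6 had a single annotated transcript and 8 had several. The transcript with the highest mean percent of its gene's TPM carried the homeobox in its annotated coding sequence in 13 of the 14. The exception was Hoxa10. In the second transcript table the count was 12 of 14, as Hoxc4 was led there by Hoxc4-202 (61.4% and 48.6%), whose annotated coding sequence lacks the homeobox. In Hoxa10, the transcript Hoxa10-203 (chr6:52231199-52233324, 2 exons), annotated as a processed transcript with no coding sequence, held 75.64% and 68.15% of the gene's TPM.

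The exons of Hoxa10-203 include all 180 bases of the homeobox shown above, so the RNA holds the letters without an annotated reading frame. The 2 coding transcripts, Hoxa10-201 and Hoxa10-202, together held 21.6% and 28.2%, which came to 2.77 and 2.86 TPM. In these coding transcripts the libraries were closer to each other than in the gene total. The second transcript table gave the coding pair 33.4% and 42.2%, and Hoxa10-203 50.6% and 45.7%. All 4 annotated transcripts of Hoxa10 hold the homeobox bases in their exons, so the split between them is an estimate.

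Hoxa9 was also divided. Its coding transcript with a homeobox, Hoxa9-201, held 51.03% and 35.60%, and the processed transcript Hoxa9-203 held 28.03% and 41.89%, so the leading transcript differed between the libraries. Hoxc4 likewise changed leader: Hoxc4-201, with the homeobox in frame, held 40.79% and 65.06%, and Hoxc4-202, annotated as coding without it, held 59.21% and 34.94%. The exons of Hoxa9-203 and Hoxc4-202 also hold all 180 homeobox bases, so what they lack is the homeobox in an annotated coding sequence. In the other 12 members the same transcript led in both libraries. Over the 14 members, transcripts with the homeobox in their coding sequence held 82.4% and 85.0% of the TPM.

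Hoxd8, with 3 coding transcripts that all carry the homeobox, was led by Hoxd8-201 at 87.66% and 78.26%. Hoxa7-201 held 77.92% and 69.15% of Hoxa7, Hoxa11-201 held 72.11% and 97.68% of Hoxa11, and Hoxc6-201 held 58.64% and 67.20% of Hoxc6. Hoxc9 was assigned whole to Hoxc9-201.

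**Figure D3:**
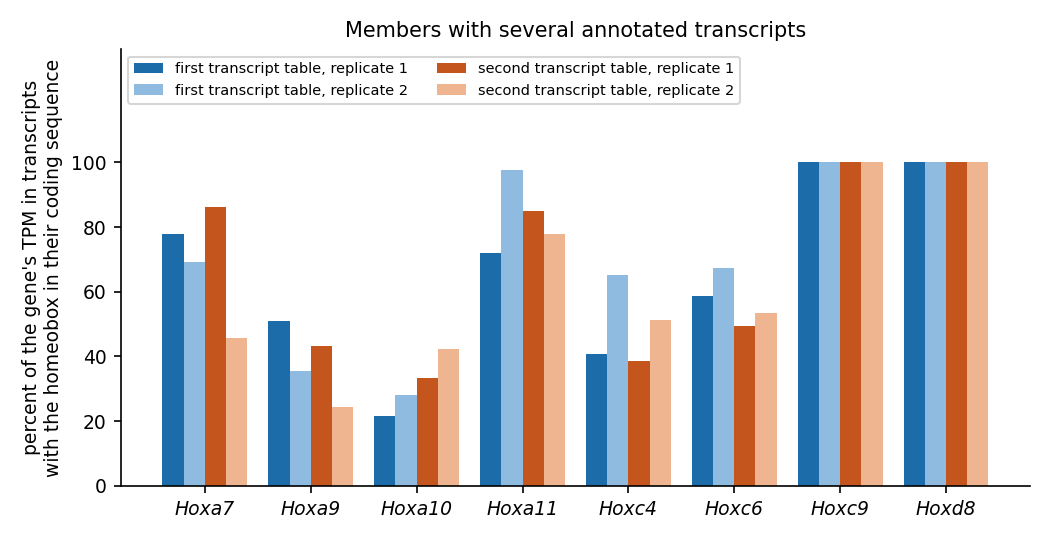
Percent of each gene's TPM in transcripts whose annotated coding sequence holds the whole homeobox, for the 8 members at a mean of 1 TPM or more with several annotated transcripts; bars are single libraries in the first (blue) and second (orange) transcript table. Hoxa10 is below 50% in all 4 bars, and Hoxc9 and Hoxd8 are at 100% in all 4.

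A second deposited table of transcripts, in another program's layout, was summed per gene to see which levels depended on the estimate. Levels were higher there by a median of 1.49-fold over the 14 members, from 1.31-fold (Hoxd10) to 2.02-fold (Hoxa9), against 1.47-fold over 11559 protein-coding genes at 1 TPM or more. Hoxd8, at 40.3 and 33.0 TPM, then lay above Hoxc10, at 28.4 and 27.0 TPM, so the order of these 2 genes turned. Hoxa10 came after both in either table, here at 22.7 and 17.2 TPM. As shares of the Hox total, Hoxd8 was at 25.7% and 24.1% and Hoxc10 at 18.1% and 19.7%. The cluster shares became 34.7% for HoxD, 31% for HoxA, 30.9% for HoxC and 3.33% for HoxB.

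**Figure D4:**
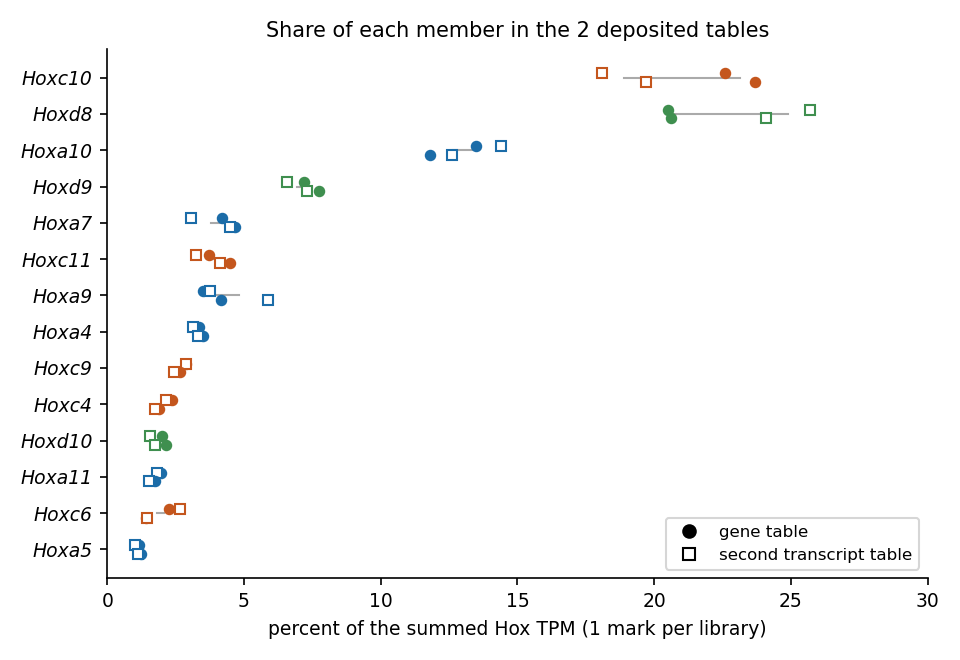
Percent of the summed Hox TPM held by each of the 14 members at a mean of 1 TPM or more, in the gene table (filled circles) and the second transcript table (open squares), 1 mark per library, with a grey line between the means of the tables. Hoxc10 and Hoxd8 change places, and Hoxa10 comes next in both.

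The libraries were then compared with each other, to see how far 2 libraries of 1 group differed in these genes. Ratios were taken on expected counts scaled by trimmed mean of M-values (TMM), for the 24 members that averaged at least 20 counts. On the log2 scale, replicate 2 over replicate 1 ran from -0.60 (Hoxc6) to 0.36 (Hoxb7). No member was 2-fold or more apart, against 1.08% of 13137 protein-coding genes with such counts. The median ratio was -0.12 over the Hox genes and 0.01 over the protein-coding genes, and 17 of the 24 members were below 0 (70.8%, against 46.6%). The median size of the ratio, without its sign, was 0.19 for the members and 0.12 for the protein-coding genes. This is 1 library against 1, so these are descriptions of the libraries.

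An exact binomial 95% interval on the counts, which covers counting error only, lay below 0 for 4 of the 24 members (16.7%), against 13.2% of protein-coding genes. It lay above 0 for none of them, against 19.1%. The 4 were Hoxa10 (708 and 551 counts, log2 ratio -0.29, interval -0.46 to -0.13), Hoxc6 (78 and 49 counts, -0.60, interval -1.15 to -0.07), Hoxc4 (145 and 103 counts, -0.42, interval -0.80 to -0.05) and Hoxd8 (1532 and 1346 counts, -0.12, interval -0.22 to -0.01). Hoxc10, from 1266.89 and 1196 counts, was at -0.01 (interval -0.13 to 0.10).

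The HoxC genes from Hoxc4 to Hoxc9 all had ratios below 0, in a stretch that ends just before the HoxC genes with higher ratios. The stretch was bounded by these ratios, so that all its genes lie below 0 follows from the choice. Hoxc4, Hoxc5, Hoxc6, Hoxc8 and Hoxc9, 5 of 5, had ratios from -0.60 to -0.20, with a median of -0.42, while Hoxc10 was at -0.01 and Hoxc11 at 0.19. Over the whole of HoxC, 6 of 7 counted genes were below 0, with a median of -0.22. In HoxA, 6 of 8 were below 0 with a median of -0.10. In HoxB it was 3 of 5 with a median of -0.06, and in HoxD 2 of 4 with a median of -0.05. Of the 5 HoxC genes, 2 had an interval below 0, against 13.2% of protein-coding genes, which were not picked by their ratios. The intervals of Hoxc5, Hoxc8 and Hoxc9 included 0. Of the protein-coding genes, 46.6% had ratios below 0, and whether this stretch differs from other genes was not tested.

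**Figure D5:**
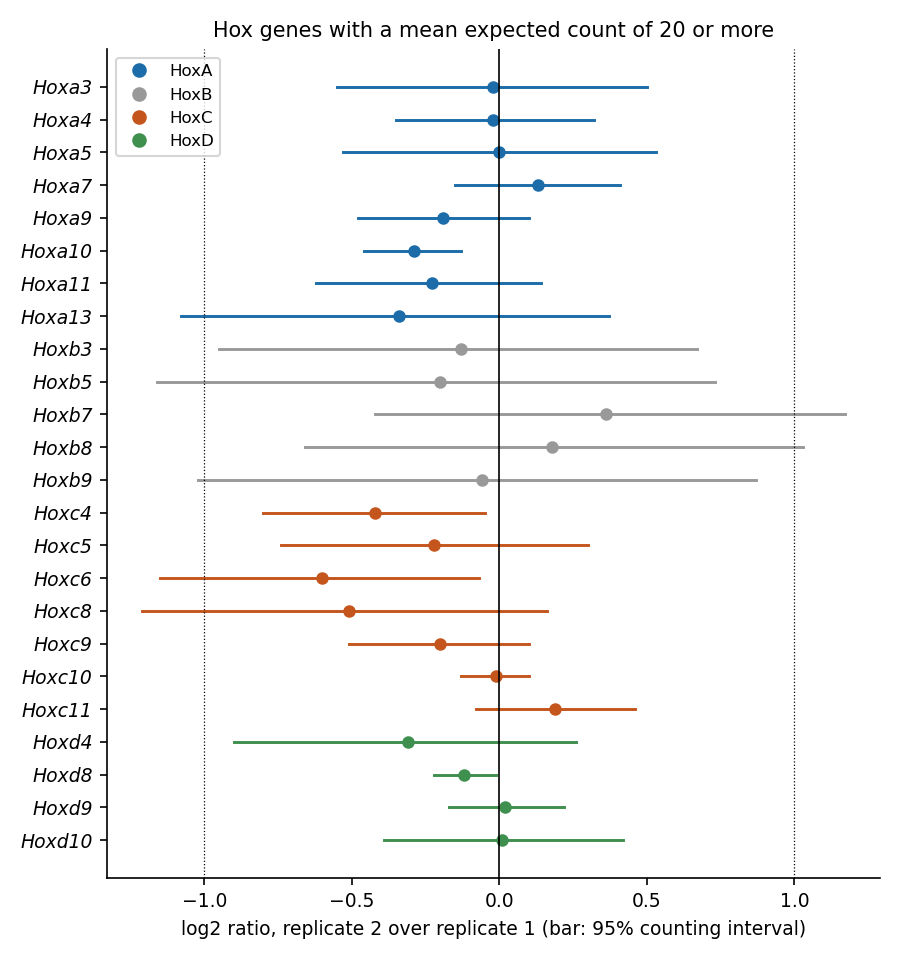
Log2 ratio of replicate 2 over replicate 1 for the 24 Hox genes that averaged at least 20 expected counts, coloured by cluster, with 95% counting intervals as bars and 2-fold as dotted lines. All points lie between -0.60 and 0.36, and the bars of Hoxa10, Hoxc4, Hoxc6 and Hoxd8 lie below 0.

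Markers of the cell types in the muscle also differed between the libraries, and are given as summed TPM with the direction of the same scaled ratio. The fibroblast markers summed to 2460 and 2225 TPM, with 4 of 5 lower in replicate 2, the Schwann cell markers to 335 and 273 TPM with 3 of 4 lower, and the cartilage and bone markers to 17.3 and 16.2 TPM with 4 of 4 lower among those counted and Bglap and Ibsp at 0 in both. All 5 endothelial markers were higher, from 149 to 161 TPM, all 4 mural cell markers from 128 to 132 TPM, and both haemoglobin genes from 806 to 1427 TPM in sum. The 5 tendon markers summed to 219 and 219 TPM with 5 of 5 ratios above 0. Satellite cell markers summed to 19.6 and 18.9 TPM with 2 of 3 ratios above 0, and macrophage markers to 28.1 and 27.2 TPM with 3 of 4 above 0. Skin markers summed to 2.85 and 2.94 TPM, nearly all from Krt10 at 2.80 and 2.94 TPM. Krt14 was at 0.02 and 0.00 TPM and Krt5 at 0.03 and 0.00 TPM. Marker ratios ran from -0.28 (Sox9) to 0.92 (Hbb-bs), and some lay near 0, such as Pdgfrb at 0.04, Fmod at 0.02 and Col2a1 at -0.03. Of the 13137 protein-coding genes compared in the same way, 46.6% had a ratio below 0. Whether any marker list differs from other genes was not tested, nor was the part of the markers in the Hox ratios.

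The cofactors that bind DNA beside Hox proteins were present. Of 9 genes of the TALE class (Pbx, Meis and Pknox), 7 were at 1 TPM or more in both libraries, against 51.4% of protein-coding genes. Pknox2 was at 11.89 and 9.95 TPM and Pbx2 at 10.31 and 8.27 TPM. Meis1, at 2.55 and 1.97 TPM, had the largest ratio between the libraries in the list (-0.41). The list median was 2.55 and 2.72 TPM, above that of the protein-coding genes.

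The Cdx genes, which activate Hox genes in the early embryo, and the ParaHox genes had no count: Cdx1, Cdx2, Cdx4, Gsx1, Gsx2 and Pdx1 were at 0 in both libraries. Of 7 limb type and limb muscle factors, 3 reached 1 TPM in both libraries, against 51.4% of protein-coding genes. Lbx1, of migrating limb muscle precursors, was at 15.35 and 15.45 TPM, and Tbx4, the hindlimb T-box factor, at 1.29 and 1.13 TPM. Its forelimb counterpart Tbx5 was at 0.05 and 0.02 TPM, from 6 and 3 counts, and is named here after its values were seen. Also below 1 TPM in this list were Pitx1 at 0.52 and 0.59 TPM, Isl1 at 0.19 and 0.21, and Lmx1b at 0.15 and 0.19. Whether the list marks a limb type was not tested.

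Among regulators of Hox chromatin, 15 of 17 Polycomb genes, which keep Hox genes silent, and 11 of 11 Trithorax and other activating genes reached 1 TPM. The share of protein-coding genes at that level in both libraries was 51.4%. Jarid2, a Polycomb partner, was at 22.02 and 14.29 TPM and had the largest ratio of its list, -0.32. Phc2 was at 12.70 and 15.25, and Bmi1 at 13.77 and 11.11 TPM. Dpy30, of the histone methyltransferase complexes, was at 34.19 and 32.30 TPM, Ctcf, which sets boundaries in the clusters, at 19.87 and 15.15, and Kdm6b, a demethylase of the Polycomb mark, at 15.27 and 16.33 TPM. Men1 had the largest ratio of its list, 0.23. The median ratios were -0.01 for the Polycomb list and -0.03 for the activating list.

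Retinoic acid is a known inducer of Hox genes, and 11 of 15 genes of its pathway reached 1 TPM, against 51.4% of protein-coding genes. The receptors Rxra, Rxrb and Rxrg were at 26.08 and 20.56, 17.32 and 16.55, and 17.03 and 11.47 TPM. Rxrg had the largest ratio of the list, -0.49.

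Of 19 other homeobox genes of the limb and mesenchyme, 8 reached 1 TPM in both libraries, against 51.4% of protein-coding genes. Prrx1, of limb connective tissue, was at 28.06 and 28.60 TPM, above Hoxc10 in both libraries, Meox2, of limb muscle, at 14.32 and 14.69 TPM, and Meox1 at 4.98 and 6.37 TPM. En1 had the largest ratio, 0.44. In this list 9 of 10 counted genes had a ratio above 0 and the median ratio was 0.20, the opposite side of 0 from the Hox median. Of the protein-coding genes with such counts, 46.6% had a ratio below 0, and their median was 0.01.

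The other annotated genes inside the clusters, most of them noncoding, were mostly without a count or low. The 4 clusters hold 46 other annotated genes, of which 25 had no count and 2 reached 1 TPM in both libraries. The 46 include the protein-coding models Gm28308, 5730596B20Rik and Gm28230 and many short RNA models. The same shares over genes of these types elsewhere were not computed. The 2 genes at 1 TPM or more were Hoxd3os1, antisense in HoxD, at 5.25 and 5.17 TPM, and Hoxa11os, antisense to Hoxa11, at 2.17 and 1.62 TPM. Hotairm1, at the 3′ end of HoxA, was at 0.96 and 1.25 TPM from 9 and 8.03 counts. Hotair, transcribed in HoxC between Hoxc12 and Hoxc11, was at 0.37 and 0.53 TPM, with the largest ratio of the noncoding list (0.58). Hottip, beyond Hoxa13, had no count, nor had the 7 genes annotated as microRNAs inside the clusters, whose short products these libraries need not retain.

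Some genes flanking the clusters were at or above the level of the leading members. Hibadh, beside HoxA, was at 38.98 and 39.06 TPM, Lnpk, beside HoxD, at 26.54 and 22.31 TPM, and Mtx2, on the other side of HoxD, at 21.07 and 20.90 TPM. Calcoco1, beside HoxC, had the largest ratio of the list, 0.22, at 19.13 and 21.02 TPM. Of 11 matched flanking genes, 7 reached 1 TPM in both libraries, against 51.4% of protein-coding genes. Genes without a count, such as Hoxd12 and Hoxd13, lay on the same chromosome region as flanking genes at the levels just given.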

How the data were processed

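Total RNA of 2 gastrocnemius libraries was analysed from the deposited gene and transcript tables. Per the file headers and the labels, the authors quantified reads on mm10 with GENCODE M21 gene models; the aligner and its version were not given in sources used here. The gene tables hold the authors' expected counts and TPM, the first transcript tables each transcript's percent of its gene, and the second the authors' estimated counts and TPM. Deposited TPM was used as given; spike-ins and features without a gene model were left out of library sizes. The mice are hybrids, and the effect of reads from the second parental genome on mapping was not tested. Depth is given in the report. Expected counts, rounded to whole numbers, were scaled by TMM (edgeR 4.0.16, R 4.3.3) over the 16214 genes averaging at least 10 counts, with a prior count of 0.5 in ratios; intervals are exact binomial (scipy 1.17.1). The ratio step was tested on simulated data. Sequences were read with biopython 1.88. The RefSeq promoter table matched 22 of the 39 members; 31-base words were compared over all GENCODE transcripts. With 1 group, no test across genes or samples was made. Alternatives were the second table, posterior mean TPM, other thresholds, DESeq2 1.42.0 size factors, library and spike-in totals, other filters and priors, and each library alone. Values of both libraries are given for members with a mean of 1 TPM or more; lists of up to 6 genes are named whole, others by their 3 highest genes and the one with the largest ratio. Values of 3 genes that this rule names or counts are not reported here. The members and lists were chosen with earlier results of these data known. Haglros, Prac1 and Prac2 matched no gene name.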

Additional observations from a re-analysis of the deposited data

Results flagged for a closer look

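Hoxb1, the hindbrain gene of group 1, had an expected count of 0 in both libraries in the gene table, while the second transcript table assigned it an estimated count of 8 in replicate 1 and 5 in replicate 2, more than the 3 counts that a count of 0 allows. It was singled out because this signal stood in a table that the levels of the report do not rest on. The other 6 members at 0 in the gene table, Hoxb13, Hoxc12, Hoxc13, Hoxd1, Hoxd12 and Hoxd13, were at 0 in the second table too. In TPM the Hoxb1 estimates were 0.177 and 0.110, and the cause of the difference was not tested.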

How the results depend on the processing

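The count of 14 Hox genes at 1 TPM or more became 9 at 2 TPM and 29 by an expected count of 10 or more; the second table, posterior mean TPM, 0.5 TPM and each library alone gave 14 to 19. The summed level of 90.6 TPM became 147 in the second table and 132 when TPM was recomputed over endogenous genes without the 7SL genes, and was 85.7 and 95.4 in the libraries alone. The shares of HoxA, HoxB, HoxC and HoxD were 31%, 3.33%, 30.9% and 34.7% in the second table. Posterior mean TPM gave HoxB 3.67% and HoxC 34.8%, expected counts gave HoxA 26.7%, HoxC 34.2% and HoxD 36.2%, and leaving out Hoxc10 gave HoxA 39.2%, HoxB 3.99%, HoxC 16.2% and HoxD 40.7%. The anterior, central and posterior shares were 2.30%, 42.8% and 54.9% in the second table, 2.31%, 41.1% and 56.6% by expected counts, and 2.68%, 50.9% and 46.4% without Hoxc10; posterior mean TPM gave the anterior class 2.83% and the posterior class 57.8%. The cause of these differences was not tested. With each library alone the shares stayed within 29.6% to 30.6% for HoxA, 2.93% to 3.19% for HoxB, 35.6% for HoxC, 30.9% to 31.6% for HoxD, 2.00% to 2.12% for the anterior class, 38.6% to 39.6% for the central class and 58.3% to 59.4% for the posterior class. The median ratio of -0.12 lay between -0.17 and -0.07 under all 8 alternatives. The number of members 2-fold or more apart was 0 and became 1 in the second table, 1 with a mean count of 5 or more and 1 with no filter. The leading transcript was that of the report in 13 of 14 members in the second table and in each library alone. All 14 levels moved in the second table, and 2 moved with posterior mean TPM. All 24 ratios stayed inside their counting interval under the 5 alternatives in scaling, table or prior. With 1 group, a replicate block does not apply. Depth limits the 7 members without a count, the 8 between 0.195 and 0.415 TPM, and the transcript splits.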
